A study of Mus musculus with 22 samples.

Results

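The smooth muscle contractile genes are a list of 35 genes for the actin and myosin filaments of smooth muscle, the proteins that regulate them, the cytoskeleton that anchors them, and factors that control their transcription or calcium supply. Membership goes by name and not by a measured value, and the list was drawn up with earlier results of these data known. A gene was a member when its symbol or an alias was on the list, and it was measured here when a probe set, the group of short oligonucleotides that reads 1 transcript on an Affymetrix array, was annotated to that symbol alone. Of the 35 listed genes, 34 had such a probe set, which is 34 of 18194 genes and 77 of 45101 probe sets of the series. Rock2 had none and is not analysed here.

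The arrays measured total RNA from aortas of female C57BL/6 mice, 1 aorta per array without pooling and 5 ug of RNA each. Ovaries had been removed from every mouse, placebo mice included, and ages ran from 2.5 to 4.5 months. Mice were wild type (WT), without estrogen receptor alpha (ERaKO) or without estrogen receptor beta (ERbKO), and the WT mice were littermates of the knockouts. The labels do not give the knockout alleles. Each mouse carried a pellet of 17beta-estradiol (E2), the main ovarian estrogen, or of placebo for 7 to 8 days. This gave 6 groups, with 5 arrays for each pellet in WT and 3 arrays for each pellet in either knockout.

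Smooth muscle cells of the aortic wall contract when calcium activates myosin light chain kinase, which phosphorylates the regulatory light chain of myosin and lets its heads pull on actin filaments. Myosin phosphatase reverses this step. Many of the genes are transcribed through serum response factor and its coactivator myocardin, and high levels of their products mark the contractile state of the cell.

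Serum response factor binds a short AT-rich element called the CArG box, and the promoter windows that hold one are shown because the 2 factors behind it, Srf and Myocd, are members described below. RefSeq promoter windows on GRCm38.p6, 250 bases before to 50 bases after a gene's start, were found for 30 of the 35 listed genes. No window was found for Myh11, Actg2, Tagln, Rock1 and Myocd. The CArG box was searched on the strand of the gene as CC and GG with only A or T between them, 10 letters in all. Only exact matches were counted. This pattern is its own reverse complement, so a box on either strand is found and counted once. It was present in 5 of 33 member windows (15.2%), against 1.63% of all 32851 windows. The 5 genes are Srf itself, the myosin light chain genes Myl9 and Myl6, the calponin gene Cnn2 and the vinculin gene Vcl. The box is in capitals with 15 bases on each side, 5′ to 3′ on the strand of the gene, and the Srf window holds 2 boxes.
Srf, chr17:46556220-46556259, minus strand: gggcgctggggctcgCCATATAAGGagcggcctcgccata
Srf, chr17:46556200-46556239, minus strand: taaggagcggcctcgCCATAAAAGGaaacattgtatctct
Myl9, chr2:156775288-156775327, plus strand: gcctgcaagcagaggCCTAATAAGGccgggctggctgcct
Myl6, chr10:128493035-128493074, minus strand: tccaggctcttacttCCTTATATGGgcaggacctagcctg
Cnn2, chr10:79988529-79988568, plus strand: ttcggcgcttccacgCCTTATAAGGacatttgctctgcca
Vcl, chr14:20929156-20929195, plus strand: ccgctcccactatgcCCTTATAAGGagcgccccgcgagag
The Cnn2 and Vcl boxes have the same 10 letters, and the boxes of Cnn2, Myl6 and Srf begin 50 to 82 bases before the gene's start while those of Myl9 and Vcl begin 161 and 227 bases before it. A match is a description of these letters and does not show that the factor binds there.

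Values are GCRMA signals on the log2 scale, 1 per probe set, so a difference of 1 is a doubling of signal. All 34 members were over a log2 value of 4 on all 22 arrays, and 26 of them over 8 on all 22. A member is represented by its probe set with the highest mean. Those of Acta2 (1416454_s_at), Cald1 (1424769_s_at), Vim (1438118_x_at), Itga5 (1423267_s_at) and Srf (1418255_s_at) carry a suffix that marks probes shared with related transcripts. Within a group, r between 2 arrays over the probe sets lay between 0.905 and 0.984 (32 pairs). The Esr1 probe set 1460591_at, for the receptor that ERaKO mice lack, read 8.04 to 9.17 on the WT and ERbKO arrays and 3.48 to 5.50 on the ERaKO arrays. No probe set of Esr2, the receptor that ERbKO mice lack, passed the filter on low values, so the ERbKO label was not checked this way.

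One array stood apart for the members. WT placebo 4 held the lowest of the 5 WT placebo values for 30 of 34 members (88.2%), where it was lowest for 36.8% of all tested probe sets, and it was the lowest of all 22 arrays for 29 members. Its mean over the 34 members was 10.10, against 10.90, 11.15, 11.22 and 11.31 on the other WT placebo arrays. The same array had the highest mean of 7 brown adipocyte markers, 11.75 against 9.0 to 11.27 on the other 21 arrays, and the highest mean of 6 white adipocyte markers, 11.90. At the other end, ERaKO E2 2 was the highest of 22 arrays for 21 members, with a mean of 11.71 over the members and the lowest brown adipocyte mean, 9.0. Brown adipocyte means were nearly as low on ERbKO E2 2 and WT E2 3 (9.03 and 9.08), where the member means were 11.17 and 11.05. The part of fat tissue in these values was not tested. In RNA from a whole aorta, fewer smooth muscle cells and less of these RNAs per cell cannot be told apart. For the members described one by one, the WT change with E2 is given with and without WT placebo 4.

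**Figure D1:**
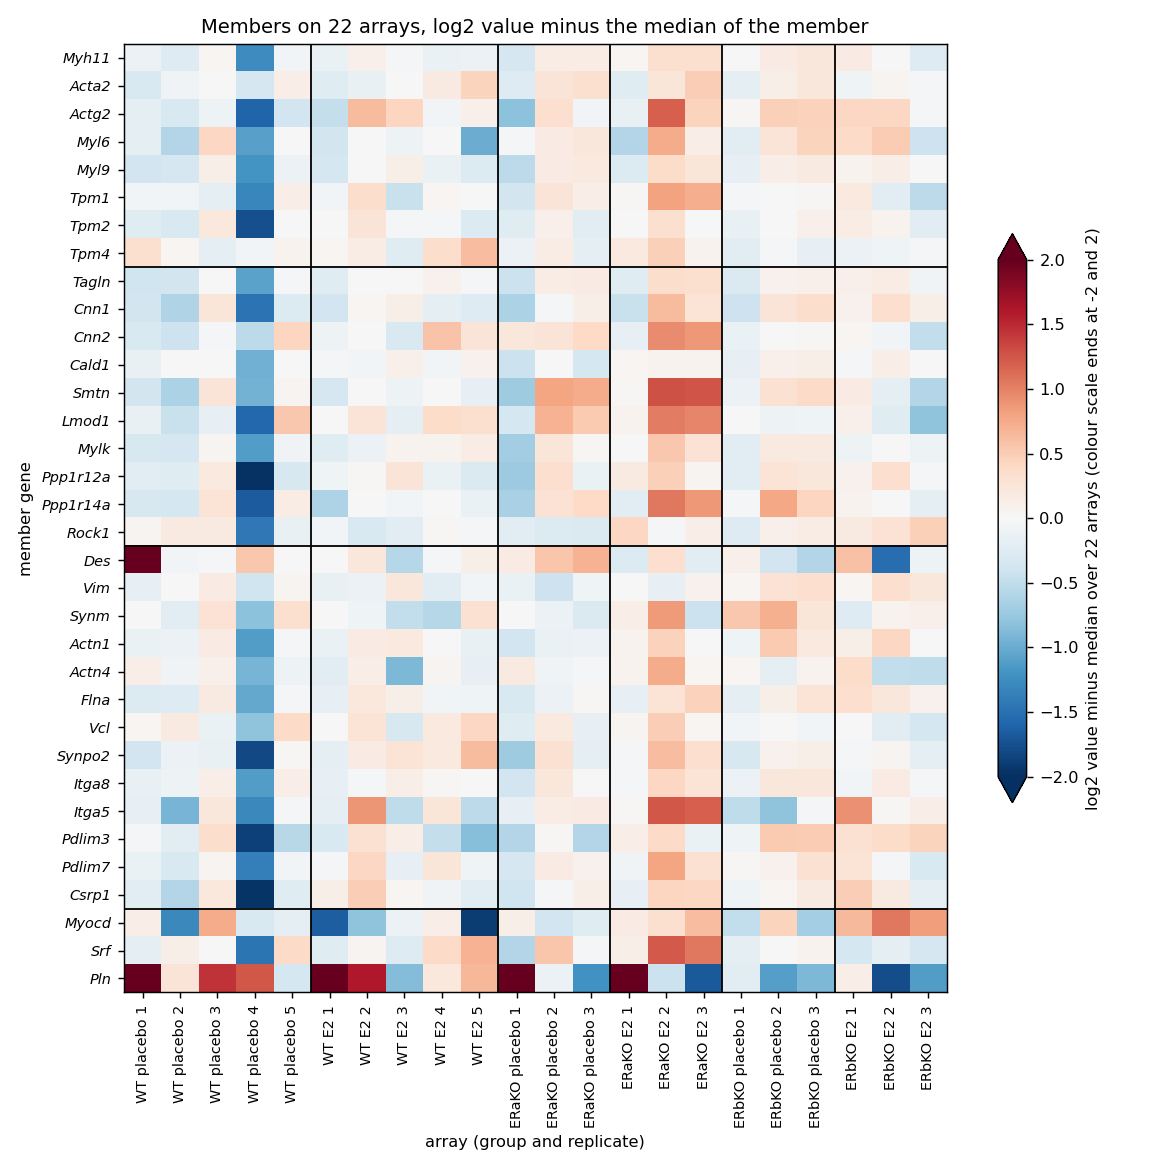
Log2 value of each of the 34 members (rows, grouped by role with black lines) on each of the 22 arrays (columns, grouped by genotype and pellet), minus that member's median over the 22 arrays. WT placebo 4 is blue for nearly all members, ERaKO E2 2 and 3 are red for many, and Pln, Des and Myocd vary from array to array apart from the rest.

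**Figure D2:**
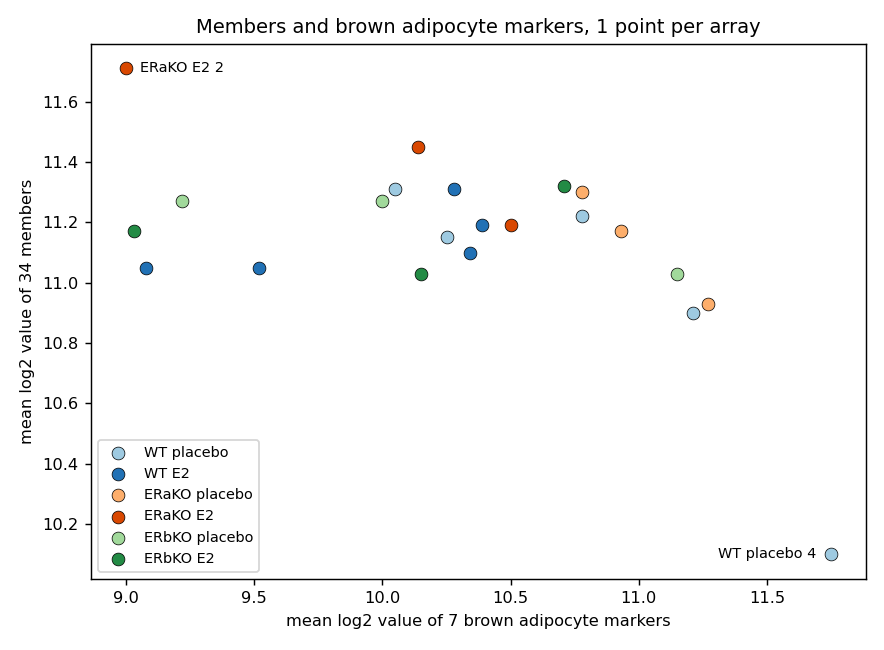
Mean log2 value of the 34 members (vertical axis) against the mean log2 value of 7 brown adipocyte markers (horizontal axis), 1 point per array and 1 colour per group. WT placebo 4 lies at 10.10 and 11.75 and ERaKO E2 2 at 11.71 and 9.0, at opposite corners, while the remaining arrays have member means of 10.90 to 11.45. Among these, ERbKO E2 2 and WT E2 3 have brown marker means of 9.03 and 9.08, with member means of 11.17 and 11.05.

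E2 and placebo were compared within each genotype to see which aortic transcripts respond to estrogen and through which receptor. No member passed the test in WT, ERaKO or ERbKO. In WT the members' log2 changes had a median of 0.25 and 29 of 34 were above 0, and in ERaKO the median was 0.33 with 31 of 34 above 0. In ERbKO the median was -0.041 with 13 of 34 above 0. The medians over all tested probe sets were 0.013, 0.013 and -0.024, and 52.2%, 51.7% and 44.3% of them were above 0. Markers of fat had changes of the other sign in WT, where 0 of 7 brown and 0 of 6 white adipocyte markers were above 0, with medians of -1.04 and -0.64. Brown marker means ran from 10.05 to 11.75 with placebo and from 9.08 to 10.39 with E2, and white marker means from 10.57 to 11.90 and from 9.41 to 10.93. With WT placebo 4 left out the marker medians were -0.63 and -0.44, again with none above 0, and their part in the members' values was not tested.

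The tests were limma contrasts, two-sided, over 20410 probe sets, with an adjusted p (Benjamini-Hochberg) under 0.05 as the call, and ± beside a change is the standard error (SE) of that fit. In WT 0 of 34 members were called, where 0.387% of all probe sets were, and 3 members were at an unadjusted p under 0.05, all higher with E2. That is 8.82% of members, against 7.97% of all probe sets in both directions and 4.55% higher. In ERaKO 0 members were called (0.0049% of all probe sets) and 0 were at an unadjusted p under 0.05 (6.79% of all). In ERbKO 0 were called (0.098%) and 1 was at an unadjusted p under 0.05, which is 2.94% of members against 2.4% of all probe sets and 1.18% higher. Over all 74 tested probe sets of the members, the shares at an unadjusted p under 0.05 were 8.11%, 4.05% and 4.05% in WT, ERaKO and ERbKO. In ERaKO these were 3 of the 5 Rock1 probe sets, all higher, and in WT 1 Rock1 probe set was lower. The Rock1 probe sets ranged from -0.564 to 0.189 in WT and from 0.437 to 0.97 in ERaKO. The E2 arrays did not overlap the placebo arrays for 0 members in WT (1.85% of all probe sets), and for 4 members in ERaKO, all higher, which is 11.8% where all probe sets gave 12.7% in both directions and 3.42% higher. In ERbKO they did not overlap for 5 members, 3 higher and 2 lower, which is 14.7% where all probe sets gave 9.57%, 4.4% higher and 5.16% lower. The counts of calls over all probe sets depended on the replicate block described below: 79 in WT, 1 in ERaKO and 20 in ERbKO became 347, 340 and 35 with it, and those of members stayed at 0.

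Without WT placebo 4 the WT median went from 0.25 to 0.048, members above 0 went from 29 to 22, and members at an unadjusted p under 0.05 went from 3 to 0. The 7 members whose WT change turned from above to below 0 were Myl6, Vim, Vcl, Itga8, Pdlim3, Ppp1r14a and Rock1. In ERaKO and ERbKO the changes themselves use no WT array and kept their values. The pooled spread was smaller without it, and 5 members of ERaKO were then at an unadjusted p under 0.05, with Rock1 at 0.44 (adjusted p = 0.34) and Srf at 0.82 (adjusted p = 0.35) the smallest. WT placebo 3 acted the other way. It was the highest WT placebo array for 21 of 34 members (61.8%, against 19.4% of all probe sets). Leaving out WT placebo 3 instead gave a WT median of 0.36 with 31 members above 0. In that fit 9 members were at an unadjusted p under 0.05 in WT, and 0 were called.

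**Figure D3:**
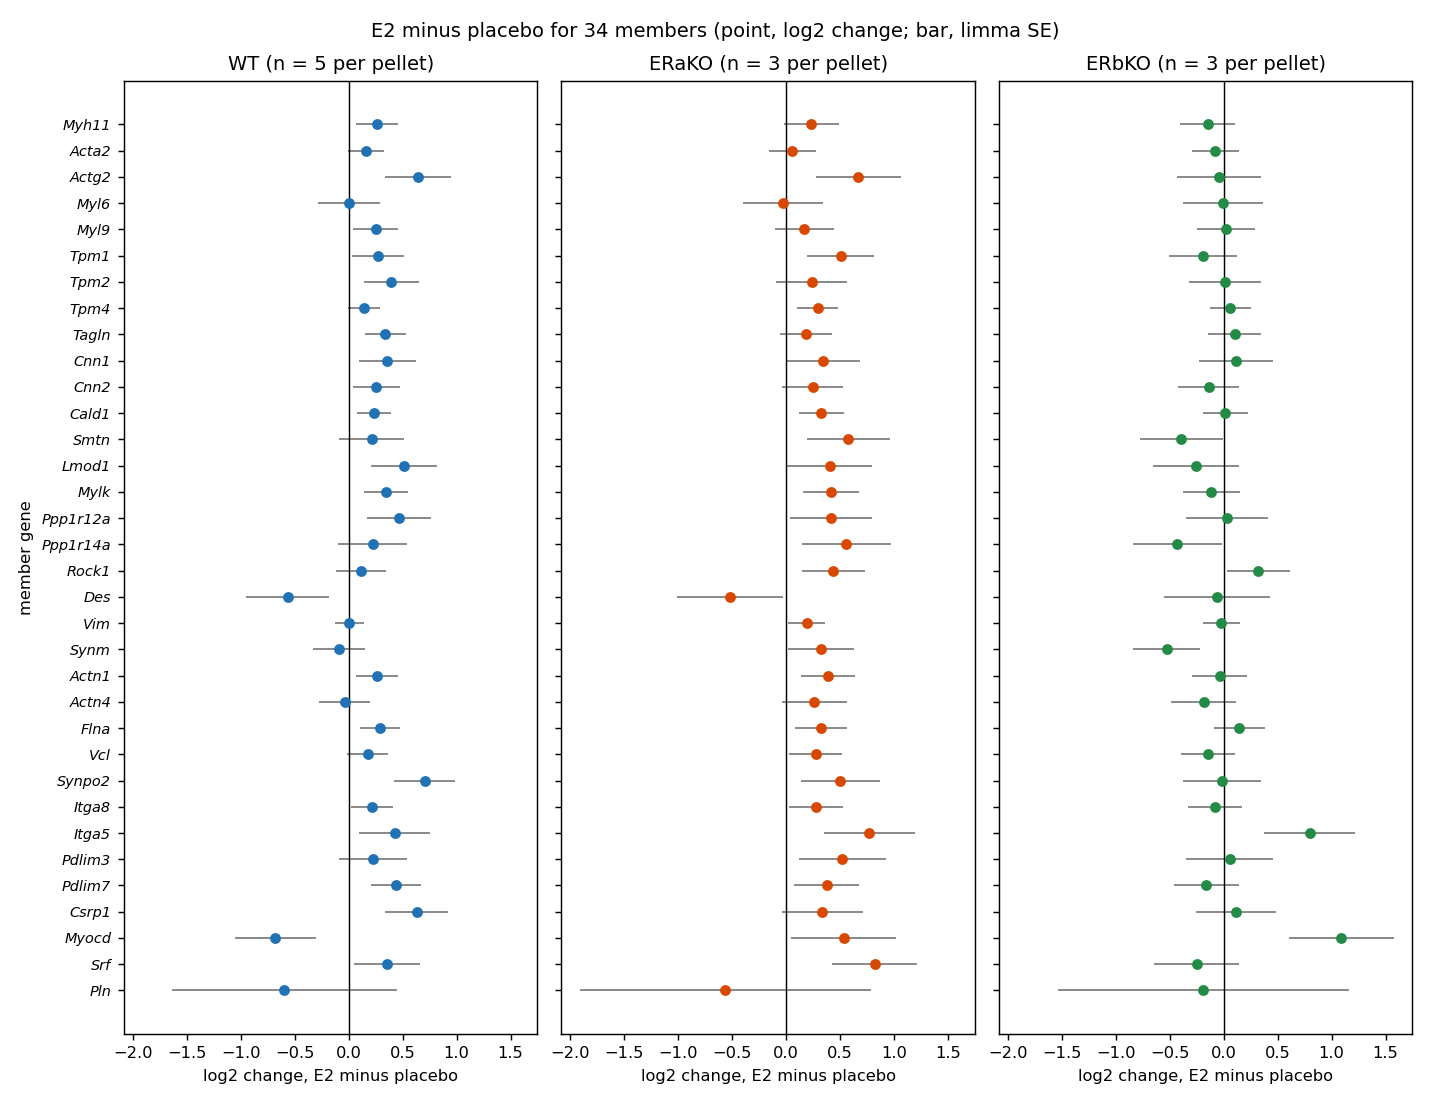
Log2 change, E2 minus placebo, of the 34 members in WT (n = 5 arrays per pellet), ERaKO and ERbKO (n = 3 each). Points are changes and bars their limma standard errors, and no point was a call. Points lie mostly right of 0 in WT and ERaKO and on both sides in ERbKO, with Myocd left of 0 in WT and right of 0 in both knockouts.

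**Figure D4:**
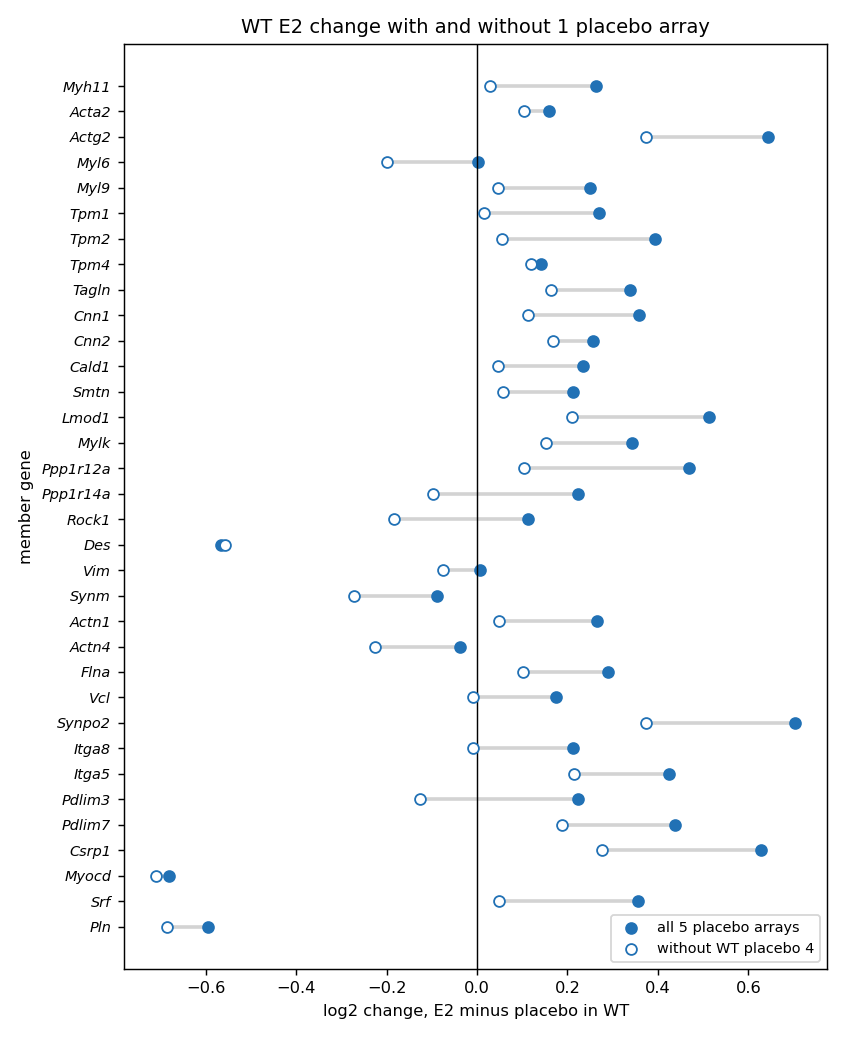
Log2 change, E2 minus placebo, of the 34 members in WT with all 5 placebo arrays (filled) and without WT placebo 4 (open). The median moves from 0.25 to 0.048, and Myh11 from 0.26 to 0.029.

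The filament genes encode the sliding apparatus itself. All 8 measured members had a log2 change above 0 in WT (median 0.26), 7 of 8 did in ERaKO (0.23) and 3 of 8 in ERbKO (-0.026). None was called. Leaving out WT placebo 4 gave a WT median of 0.051, with 7 of 8 above 0.

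Myh11 encodes the smooth muscle myosin heavy chain, the motor of the thick filament. It read 13.33, 13.20, 13.50, 12.19 and 13.40 on the 5 WT placebo arrays, named 1 to 5 in this order as in all lists below, and 13.32, 13.55, 13.41, 13.32 and 13.34 with E2. The ERaKO arrays read 13.12, 13.60 and 13.61 with placebo and 13.50, 13.77 and 13.77 with E2, and the ERbKO arrays 13.44, 13.62 and 13.68 and 13.62, 13.47 and 13.20. WT placebo 4 was the lowest of the 22 arrays, and placebo and E2 arrays overlapped in every genotype. The E2 changes were 0.26 ± 0.20 in WT, 0.23 ± 0.25 in ERaKO and -0.15 ± 0.25 in ERbKO, and the WT change was 0.029 ± 0.13 without WT placebo 4.

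Acta2, the smooth muscle alpha actin of the thin filament, varied less. Its WT values were 13.98, 14.21, 14.29, 13.95 and 14.42 with placebo and 14.04, 14.13, 14.28, 14.46 and 14.73 with E2. In ERaKO they were 14.02, 14.54 and 14.60 and 14.04, 14.52 and 14.78, and in ERbKO 14.10, 14.40 and 14.51 and 14.20, 14.34 and 14.24. All 22 values lay between 13.95 and 14.78, and placebo and E2 arrays overlapped in every genotype. Its E2 changes were 0.16 ± 0.17, 0.058 ± 0.22 and -0.078 ± 0.22 in WT, ERaKO and ERbKO. The WT change was 0.10 without WT placebo 4.

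Actg2, the gamma actin that is most abundant in visceral smooth muscle, was among the 3 members with the smallest p in WT by representative probe sets. Placebo arrays of WT read 9.31, 9.21, 9.41, 7.91 and 9.13, and E2 arrays 9.04, 10.15, 9.94, 9.46 and 9.61. ERaKO arrays read 8.69, 9.85 and 9.46 and then 9.36, 10.70 and 9.96 with E2, and ERbKO arrays 9.53, 9.98 and 9.97 and 9.92, 9.93 and 9.49. Of the 5 WT E2 arrays, 4 lay above every WT placebo array and WT E2 1 lay among them. The change was 0.64 ± 0.30 in WT (adjusted p = 0.62), 0.67 ± 0.39 in ERaKO and -0.044 ± 0.39 in ERbKO, and it was 0.37 ± 0.27 in WT without WT placebo 4.

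Tpm1 encodes a tropomyosin, the coiled coil along the actin filament. Its WT arrays read 11.89, 11.89, 11.74, 10.63 and 12.08 with placebo and 11.88, 12.29, 11.50, 11.98 and 11.94 with E2. Its ERaKO arrays read 11.58, 12.20 and 12.07 and 11.96, 12.74 and 12.67, and its ERbKO arrays 11.91, 11.94 and 11.96 and 12.13, 11.71 and 11.41. ERaKO E2 2 and 3 were the highest of the 22 arrays and WT placebo 4 was the lowest. The E2 changes were 0.27 ± 0.24 in WT, 0.50 ± 0.31 in ERaKO and -0.19 ± 0.31 in ERbKO, and the WT change was 0.015 without WT placebo 4. The 4 probe sets of Tpm1, a gene with many splice forms, ranged from -0.49 to 0.27 in WT.

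The other filament members were the light chain genes Myl6 and Myl9 and the tropomyosin genes Tpm2 and Tpm4. Their WT changes ran from 0.0022 for Myl6 to 0.39 for Tpm2, their ERaKO changes from -0.031 for Myl6 to 0.29 for Tpm4, and their ERbKO changes from -0.0082 for Myl6 to 0.06 for Tpm4. Tpm2 read 12.13 on WT placebo 4 and 13.59 to 14.22 on the other 21 arrays. Without that array the WT changes ran from -0.20 for Myl6 to 0.12 for Tpm4.

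The regulators of contraction are proteins that bind the filaments or set the phosphorylation of the light chain. All 10 measured members were above 0 in WT (median 0.30) and in ERaKO (0.41), and 5 of 10 were in ERbKO (-0.049). None was called in any of the 3, and the WT median was 0.11 with 8 of 10 above 0 without WT placebo 4.

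Tagln, which encodes the actin-binding protein SM22 alpha, read 13.43, 13.46, 13.84, 12.76 and 13.81 in WT with placebo and 13.60, 13.83, 13.85, 13.92 and 13.79 with E2. It read 13.40, 13.98 and 14 and 13.59, 14.18 and 14.16 in ERaKO, and 13.54, 13.92 and 13.93 and 13.94, 13.98 and 13.77 in ERbKO. Replicate 1 was the lowest of the 3 arrays in both ERaKO groups and in ERbKO placebo, and E2 arrays overlapped placebo arrays in each genotype. Changes with E2 were 0.34 ± 0.19 in WT (adjusted p = 0.68), 0.18 ± 0.24 in ERaKO and 0.10 ± 0.24 in ERbKO. Without WT placebo 4 the WT change was 0.16 ± 0.16.

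Cnn1, the basic calponin that restrains the myosin ATPase, read 12.09, 11.85, 12.69, 10.98 and 12.18 in WT with placebo and 12.06, 12.49, 12.57, 12.27 and 12.19 with E2. In ERaKO the values were 11.82, 12.41 and 12.57 and 12.01, 13.09 and 12.73, and in ERbKO 12.03, 12.71 and 12.80 and 12.53, 12.79 and 12.56. ERbKO E2 values spanned less than ERbKO placebo values and lay inside their range. Its E2 changes were 0.36 ± 0.27, 0.34 ± 0.34 and 0.11 ± 0.34, and the WT change was 0.11 ± 0.23 without WT placebo 4.

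Cnn2, a calponin that other cell types also make, read 10.07, 9.97, 10.34, 9.85 and 10.81 in WT with placebo and 10.28, 10.38, 10.08, 10.95 and 10.63 with E2. Its ERaKO values were 10.61, 10.64 and 10.78 and 10.22, 11.32 and 11.24, and its ERbKO values 10.25, 10.38 and 10.41 and 10.42, 10.33 and 9.88. With placebo all 3 ERaKO arrays lay above 4 of the 5 WT arrays and below WT placebo 5. Changes with E2 were 0.26 ± 0.22, 0.25 ± 0.28 and -0.14 ± 0.28 in WT, ERaKO and ERbKO, and 0.17 in WT without WT placebo 4.

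Smtn encodes smoothelin, a cytoskeletal protein of contractile smooth muscle. WT arrays read 10.43, 10.16, 11.05, 9.85 and 10.86 with placebo and 10.47, 10.81, 10.70, 10.79 and 10.64 with E2. ERaKO arrays read 10.09, 11.59 and 11.54 and 10.82, 12.07 and 12.05, and ERbKO arrays 10.68, 11.11 and 11.19 and 10.97, 10.62 and 10.22. Replicates 2 and 3 of both ERaKO groups were the 4 highest of the 22 arrays, while replicate 1 of each lay lower, so the 2 ERaKO groups overlapped. E2 changes were 0.21 ± 0.30 in WT, 0.57 ± 0.38 in ERaKO and -0.39 ± 0.38 in ERbKO, and 0.057 in WT without WT placebo 4.

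Lmod1, a leiomodin that nucleates actin filaments in smooth muscle, read 9.67, 9.37, 9.65, 8.25 and 10.36 in WT with placebo and 9.83, 10.08, 9.64, 10.18 and 10.14 with E2. ERaKO values were 9.47, 10.51 and 10.34 and 9.89, 10.84 and 10.79, and ERbKO values 9.81, 9.72 and 9.73 and 9.92, 9.57 and 9.01. WT placebo 5 was above all WT E2 arrays and WT placebo 4 was the lowest of the 22. The changes were 0.51 ± 0.31, 0.40 ± 0.40 and -0.25 ± 0.40, and 0.21 in WT without WT placebo 4.

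Mylk, the myosin light chain kinase, read 12.02, 12, 12.39, 11.22 and 12.27 in WT with placebo and 12.10, 12.22, 12.40, 12.41 and 12.49 with E2. It read 11.64, 12.58 and 12.36 and 12.33, 12.87 and 12.62 in ERaKO and 12.12, 12.52 and 12.51 and 12.24, 12.34 and 12.23 in ERbKO. In WT and in ERaKO each E2 array was above the placebo array of the same replicate number, and the groups overlapped. Changes were 0.34 ± 0.20, 0.41 ± 0.26 and -0.11 ± 0.26, and 0.15 in WT without WT placebo 4.

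Ppp1r14a, which encodes the myosin phosphatase inhibitor CPI-17, read 10.01, 9.99, 10.61, 8.67 and 10.48 in WT with placebo and 9.72, 10.34, 10.28, 10.33 and 10.20 with E2. The ERaKO arrays gave 9.68, 10.63 and 10.74 and 10.13, 11.39 and 11.20, and the ERbKO arrays 10.30, 11.11 and 10.77 and 10.41, 10.35 and 10.14. In ERbKO 2 of the 3 E2 arrays lay inside the range of the placebo arrays and 1 below it. Its changes were 0.22 ± 0.32, 0.56 ± 0.41 and -0.43 ± 0.41, and the WT value turned to -0.10 without WT placebo 4.

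The remaining regulators were Cald1 (caldesmon, which binds actin and myosin), Ppp1r12a (the targeting subunit of myosin phosphatase) and Rock1 (a protein kinase). In WT their changes were 0.23, 0.47 and 0.11, and 0.047, 0.10 and -0.18 without WT placebo 4, where the change of Rock1 was below 0. In ERaKO the E2 arrays of Cald1 and Rock1 all lay above the placebo arrays, with changes of 0.32 ± 0.21 and 0.44 ± 0.29. Rock1 read 12.09, 12.04 and 12.03 and 12.73, 12.29 and 12.44 in ERaKO, and 12.05, 12.42 and 12.46 and 12.49, 12.61 and 12.79 in ERbKO, where its arrays did not overlap either (0.32 ± 0.29).

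The cytoskeleton and adhesion genes link the contractile filaments to dense bodies, focal adhesions and the matrix. Of 13 members, 10 were above 0 in WT (median 0.22), 12 in ERaKO (0.32) and 4 in ERbKO (-0.038), and none was called. Leaving out WT placebo 4 gave a WT median of -0.0094, with 6 of 13 above 0.

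Synpo2, an actin-bundling protein of muscle also called myopodin, had the smallest p of all members in WT. Its WT arrays read 11.01, 11.29, 11.25, 9.59 and 11.43 with placebo and 11.21, 11.57, 11.68, 11.59 and 12.03 with E2. ERaKO arrays read 10.69, 11.71 and 11.20 and 11.37, 12.01 and 11.73, and ERbKO arrays 11.08, 11.48 and 11.51 and 11.37, 11.45 and 11.20. In all 5 WT pairs of equal replicate number the E2 array was the higher, and the groups overlapped through WT E2 1. The WT change was 0.70 ± 0.28 (adjusted p = 0.52), and 0.37 without WT placebo 4. The changes in ERaKO and ERbKO were 0.50 ± 0.36 and -0.016 ± 0.36.

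Csrp1, a LIM-domain protein that binds alpha-actinin, read 11.99, 11.61, 12.41, 10.23 and 11.95 in WT with placebo and 12.31, 12.68, 12.24, 12.13 and 11.97 with E2. It read 11.80, 12.15 and 12.31 and 12.03, 12.62 and 12.61 in ERaKO, and 12.11, 12.24 and 12.38 and 12.69, 12.37 and 12.02 in ERbKO. WT placebo 1 and 3 lay inside the range of the WT E2 arrays, and WT placebo 4 more than 1 unit under every other array. Its WT change was 0.63 ± 0.29 (adjusted p = 0.61), and 0.28 without WT placebo 4. In ERaKO it was 0.33 ± 0.37 and in ERbKO 0.11 ± 0.37.

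Itga5, the alpha 5 subunit of the fibronectin receptor, read 8.30, 7.54, 8.70, 7.18 and 8.43 in WT with placebo and 8.29, 9.36, 7.96, 8.71 and 7.95 with E2. The ERaKO arrays read 8.30, 8.62 and 8.64 and 8.5, 9.71 and 9.67, and the ERbKO arrays 7.96, 7.67 and 8.45 and 9.38, 8.49 and 8.60. In ERbKO all 3 E2 arrays lay above the placebo arrays, and in WT and ERaKO they overlapped. Changes with E2 were 0.42 ± 0.33 in WT, 0.77 ± 0.42 in ERaKO (adjusted p = 0.77) and 0.80 ± 0.42 in ERbKO (adjusted p = 1.0). Its WT change was 0.21 without WT placebo 4.

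Synm, the intermediate filament protein synemin, read 5.99, 5.79, 6.28, 5.18 and 6.32 in WT with placebo and 5.98, 5.91, 5.50, 5.43 and 6.30 with E2. It read 6.00, 5.88 and 5.70 and 6.12, 6.85 and 5.57 in ERaKO, and 6.53, 6.70 and 6.24 and 5.74, 6.06 and 6.10 in ERbKO. The 3 ERbKO E2 arrays lay below the 3 ERbKO placebo arrays. E2 changes were -0.089 ± 0.24 in WT, 0.32 ± 0.31 in ERaKO and -0.53 ± 0.31 in ERbKO (adjusted p = 1.0). The WT change was -0.27 without WT placebo 4.

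Des encodes desmin, the muscle intermediate filament protein that striated muscle also makes. WT arrays read 7.97, 5.82, 5.85, 6.42 and 5.88 with placebo and 5.88, 6.11, 5.31, 5.84 and 5.99 with E2. ERaKO arrays read 6.04, 6.44 and 6.57 and 5.61, 6.21 and 5.67, and ERbKO arrays 5.98, 5.50 and 5.29 and 6.46, 4.35 and 5.78. WT placebo 1 was the highest of the 22 arrays by over 1 unit. The same array had 10.09 for Acta1, the skeletal muscle actin, against 4.07 to 4.23 on the other 4 WT placebo arrays, and 13.29 for Myh6, the cardiac myosin heavy chain, against 7.69 to 9.12. Over the 5 of 14 striated muscle markers that were tested, its mean was 9.82, against 5.22 to 6.09 on the other WT placebo arrays and 4.86 to 7.20 on the WT E2 arrays. The markers Ckm and Tnnt2 were also highest on WT placebo 1, at 8.31 and 14.43. Myl7 was not, with 2.99 there, up to 4.64 on the other WT placebo arrays and 7.39 on WT E2 5. The part of striated muscle in the value of Des was not tested. The E2 changes of Des were -0.57 ± 0.38, -0.52 ± 0.49 and -0.062 ± 0.49, and -0.17 in WT without WT placebo 1 and -0.56 without WT placebo 4.

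Vim, the intermediate filament protein vimentin of mesenchymal cells, varied least of the members. It read 14.25, 14.41, 14.57, 14.01 and 14.46 in WT with placebo and 14.26, 14.29, 14.63, 14.20 and 14.36 with E2. The ERaKO values were 14.27, 13.99 and 14.32 and 14.41, 14.24 and 14.50, and the ERbKO values 14.45, 14.70 and 14.74 and 14.45, 14.75 and 14.63. Placebo and E2 arrays overlapped in each genotype, and the changes were 0.0071 ± 0.13, 0.19 ± 0.17 and -0.021 ± 0.17, with -0.076 in WT without WT placebo 4.

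Pdlim3, a PDZ and LIM protein that binds alpha-actinin, read 10.98, 10.79, 11.35, 9.13 and 10.44 in WT with placebo and 10.70, 11.30, 11.13, 10.52 and 10.15 with E2. In ERaKO it read 10.41, 11.02 and 10.41 and 11.14, 11.39 and 10.87, and in ERbKO 10.92, 11.53 and 11.50 and 11.30, 11.37 and 11.45. WT placebo 4 was the lowest of the 22 arrays and the 6 ERbKO arrays were all at 10.92 or more. Its changes with E2 were 0.22 ± 0.31, 0.52 ± 0.40 and 0.055 ± 0.40, and the WT value turned to -0.13 without that array.

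The remaining 6 members of this role were Actn1 and Actn4 (alpha-actinins, which cross-link actin), Flna (filamin A, another actin cross-linker), Vcl (vinculin of focal adhesions), Itga8 (an integrin alpha subunit) and Pdlim7 (a PDZ and LIM protein). Their WT changes ran from -0.038 for Actn4 to 0.44 for Pdlim7, and without WT placebo 4 from -0.23 to 0.19. In ERaKO they ran from 0.26 for Actn4 to 0.39 for Actn1, whose E2 arrays lay above the placebo arrays, and in ERbKO from -0.19 for Actn4 to 0.15 for Flna.

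The members that control transcription or calcium did not share 1 direction. Myocd had its lowest E2 change in WT and changes above 0 in both knockouts, Srf was above 0 in WT and ERaKO and below 0 in ERbKO, and Pln was below 0 in all 3. None was called.

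Myocd, the coactivator myocardin, read 8.30, 6.88, 8.91, 7.87 and 7.98 in WT with placebo and 6.52, 7.37, 8.06, 8.31 and 6.28 with E2. In ERaKO it read 8.29, 7.80 and 7.93 with placebo and 8.34, 8.49 and 8.79 with E2. In ERbKO it read 7.68, 8.62 and 7.49 and 8.82, 9.23 and 9.01. The E2 arrays lay above the placebo arrays in both knockouts. In WT they overlapped, and WT E2 1, 2 and 5 were 3 of the 4 lowest of the 22 arrays. The E2 change was -0.68 ± 0.38 in WT (adjusted p = 0.67), 0.53 ± 0.49 in ERaKO (adjusted p = 0.91) and 1.09 ± 0.49 in ERbKO (adjusted p = 1.0). WT placebo 4 read 7.87, inside the range of its group, and the WT change without it was -0.71.

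Srf, the serum response factor whose own promoter window holds 2 CArG boxes, read 6.99, 7.29, 7.17, 5.71 and 7.55 in WT with placebo and 6.93, 7.22, 6.91, 7.55 and 7.86 with E2. It read 6.58, 7.73 and 7.13 and 7.29, 8.40 and 8.22 in ERaKO, and 6.98, 7.17 and 7.24 and 6.82, 6.98 and 6.84 in ERbKO. ERaKO E2 2 and 3 were the highest of the 22 arrays, and the ERbKO E2 arrays lay below the ERbKO placebo arrays, the nearest pair equal after rounding. Its E2 change was 0.36 ± 0.30 in WT, 0.82 ± 0.39 in ERaKO (adjusted p = 0.73) and -0.25 ± 0.39 in ERbKO, and 0.048 in WT without WT placebo 4, whose value of 5.71 was the lowest of the 22 arrays. In ERaKO the change was a call (adjusted p = 0.013) when WT placebo 4 was left out and the replicate number was a block together, a setting added after seeing the data, and the adjusted p was 0.25 with the block on all arrays.

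Pln, phospholamban, which restrains the calcium pump of the sarcoplasmic reticulum in cardiac and smooth muscle, varied most of the members. It read 12.35, 7.21, 8.40, 8.19 and 6.61 in WT with placebo and 10.36, 8.56, 6.08, 7.17 and 7.62 with E2. In ERaKO it read 10.19, 6.83 and 5.74 and 9.27, 6.52 and 5.28, and in ERbKO 6.75, 5.85 and 6.06 and 7.08, 5.18 and 5.83. Replicate 1 was the highest in all 6 groups, and WT placebo 1, the array with the highest striated marker mean, was the highest of the 22. In all 6 groups replicate 1 also had the highest striated marker mean, at 9.82, 7.20, 7.63, 6.16, 5.22 and 5.58 in WT, ERaKO and ERbKO with placebo and then E2, and the part of striated muscle in the value of Pln was not tested. Its E2 changes were -0.59 ± 1.04, -0.56 ± 1.35 and -0.19 ± 1.35, and 0.35 in WT without WT placebo 1 and -0.69 without WT placebo 4.

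**Figure D5:**
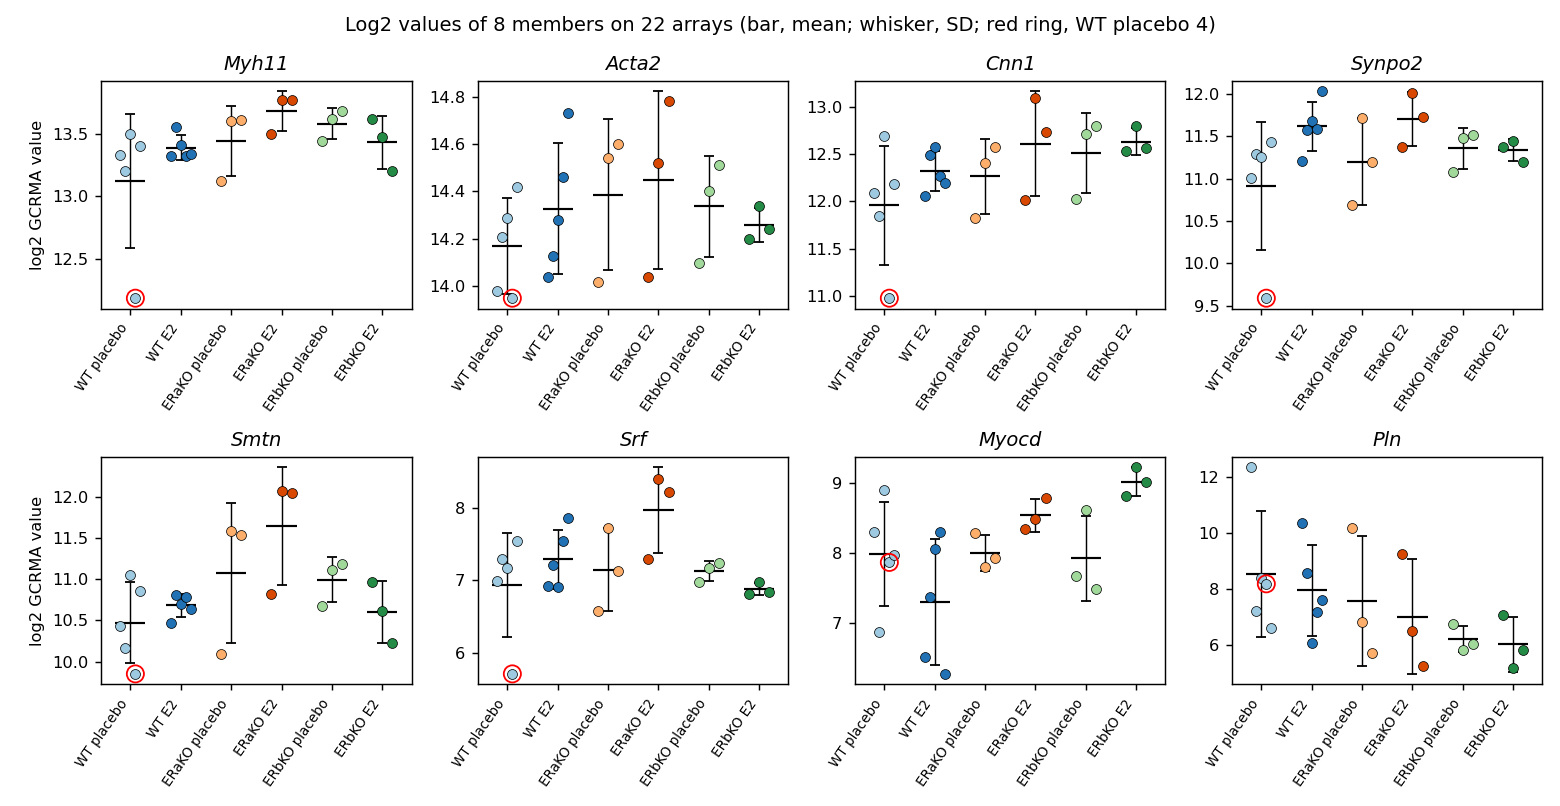
Log2 values of 8 members on the 22 arrays by group, with the mean (bar) and SD (whisker) of each group and WT placebo 4 ringed. Myocd is higher with E2 than with placebo on every array of both knockouts and not in WT, Srf and Smtn have 2 high ERaKO E2 arrays, and Pln has 1 high array in most groups.

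E2 and placebo arrays of a genotype that carry the same replicate number deviated together over all probe sets (r of 0.246 to 0.661 in 11 pairs), so the members were also read pair by pair. The labels do not say whether equal numbers pair mice. E2 was higher in every pair for 27 of 34 members in ERaKO (79.4%), where 18% of all tested probe sets were, and for 3 members in WT (8.82%, against 8.29%) and 3 in ERbKO (8.82%, against 15%). The ERaKO members included Myh11, Tagln, Cnn1, Smtn, Lmod1 and Mylk, and those in WT were Mylk, Synpo2 and Ppp1r12a. In ERbKO they were Itga5, Myocd and Rock1. Members tended to move together from array to array, so the ERaKO share rests on 3 pairs and not on 34 separate observations. In the same ERaKO arrays all 6 tested white adipocyte markers and 5 of 7 brown adipocyte markers had every E2 array below every placebo array, with median log2 changes of -1.2 and -1.3. The white marker means ran from 11.39 to 11.56 with placebo and from 9.62 to 10.82 with E2, the brown marker means from 10.78 to 11.27 and from 9.0 to 10.50. Endothelial and striated muscle markers had medians of -0.45 and -0.63 there, with 0 of 10 and 0 of 5 above 0. Fibroblast and macrophage markers had medians of 0.13 and -0.0059, with 7 of 10 and 2 of 6 above 0. The part of these markers' cells in the members' values was not tested. With the replicate number as a block in the fit, limma called 0 members in each genotype, and 3, 2 and 2 members were at an unadjusted p under 0.05 in WT, ERaKO and ERbKO.

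The E2 changes of the genotypes were compared with each other as interaction terms, to see whether the response depended on a receptor. The ERaKO and ERbKO terms against WT share the WT arrays. No member was called in any of the 3 terms, where 0.0686%, 0% and 0.0441% of all probe sets were for ERaKO minus WT, ERbKO minus WT and ERaKO minus ERbKO. The members' medians were 0.056, -0.30 and 0.37, beside -0.030, -0.040 and 0.0097 over all probe sets. When WT placebo 4 was left out, the medians of the terms against WT were 0.26 and -0.070, so the first grew and the second shrank by more than 1.5 times with 1 array. Above 0 were 21, 5 and 29 of 34 members, beside 45.9%, 44.2% and 51.3% of all probe sets. At an unadjusted p under 0.05 were 0, 1 and 0 members, beside 3.11%, 1.28% (0.568% higher) and 2.79% of all probe sets. Over all 74 tested probe sets of the members the shares were 2.7%, 4.05% and 4.05%. Brown adipocyte markers had medians of -0.39, 0.58 and -0.94 in the 3 terms, with 2, 7 and 0 of 7 above 0, and white adipocyte markers of -0.36, 0.34 and -0.92. Endothelial markers had medians of -0.77, -0.41 and -0.41, with 1, 2 and 2 of 10 above 0, and Vwf was called lower in the first term. Striated muscle medians were -0.21, 0.045 and -0.52, fibroblast medians 0.028, 0.062 and -0.011, and macrophage medians -0.14, 0.24 and -0.34. The part of these markers' cells in the members' terms was not tested.

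By representative probe sets, Myocd had the smallest p in both terms against WT. Its E2 change was higher than in WT by 1.21 ± 0.61 in ERaKO (adjusted p = 1.0) and by 1.77 ± 0.61 in ERbKO (adjusted p = 1.0). The 95% interval of the second difference was 0.485 to 3.05, and without WT placebo 4 it was 1.80 ± 0.64. In the ERaKO term a Rock1 probe set had the smallest p of all 74 member probe sets. There 2 of the 5 Rock1 probe sets were at an unadjusted p under 0.05, both higher, and the 5 ranged from 0.324 to 1.06. Between the knockouts, the smallest p by representative probe sets were those of Synm (0.85 ± 0.44), Srf (1.07 ± 0.56) and Smtn (0.97 ± 0.54). All were higher in ERaKO and all had an adjusted p of 1.0. Among all 74 member probe sets the smallest p was that of an Itga5 probe set, lower in ERaKO. The 4 of Itga5 ranged from -1.28 to -0.0289. Of the 4 of Synpo2, which ranged from 0.356 to 1.56, 2 were at an unadjusted p under 0.05, both higher in ERaKO.

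With placebo pellets, knockouts were compared with WT to see what loss of a receptor does without added estrogen, and both comparisons use the same WT arrays. No member was called in either, and 0.0049% of all probe sets were called in each. The ERaKO minus WT median was 0.25 with 26 of 34 above 0, where all probe sets had a median of 0.12 and 69.6% above 0. With each array centred on its median the members' median was 0.11 and that of all probe sets -0.023. The ERbKO minus WT median was 0.34 with 29 of 34 above 0, beside -0.013 and 47.8% for all probe sets. Without WT placebo 4 the medians were 0.0013 (17 above 0) and 0.14 (24 above 0). Against WT with placebo, ERbKO had brown adipocyte, striated muscle and macrophage marker medians of -0.64, -1.38 and -0.70, with 0 of 7, 0 of 5 and 0 of 6 above 0. ERaKO had 0.37, -0.43 and -0.49, with 5, 1 and 0 above 0. Their part in the members' values was not tested.

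In ERaKO with placebo 0 members were at an unadjusted p under 0.05 (3.62% of all probe sets) and 0 had arrays apart from WT (1.75%). By representative probe sets the smallest p were those of Cnn2 (0.47 ± 0.25, adjusted p = 0.96), Lmod1 (0.64 ± 0.35) and Smtn (0.60 ± 0.34). Of all 74 tested probe sets of the members, 1.35% were at an unadjusted p under 0.05 in ERaKO. This was 1 Cald1 probe set, higher than in WT, and the 4 of Cald1 ranged from -0.0352 to 1.43. In ERbKO with placebo 4 members were at an unadjusted p under 0.05, all higher than in WT, which is 11.8% against 3.04% of all probe sets and 1.37% higher. The count was 0 without WT placebo 4 and 14 without WT placebo 3. With all arrays the 4 were Actg2 (0.83 ± 0.35, adjusted p = 0.99), Pdlim3 (0.78 ± 0.36), Ppp1r14a (0.78 ± 0.37) and Synm (0.58 ± 0.28). With WT placebo 4 left out these were 0.56 ± 0.31, 0.43 ± 0.27, 0.46 ± 0.30 and 0.40 ± 0.26, and the 3 ERaKO differences 0.38 ± 0.26, 0.34 ± 0.29 and 0.45 ± 0.35. With all arrays, 8.11% of the 74 member probe sets were at an unadjusted p under 0.05 in ERbKO with placebo, all higher. Besides those of the 4 members named they were 1 each of Itga8, which had the smallest p, and Ppp1r12a. Actg2 was the 1 member whose ERbKO arrays, 9.53 to 9.98, all lay above the WT arrays, 7.91 to 9.41 (2.8% of all probe sets had arrays apart, 1.94% higher). Pln was lower in ERbKO than in WT by value, -2.33 ± 1.2 (adjusted p = 0.99), with overlapping arrays, in the contrast where the striated marker median was -1.38.

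With E2 pellets the same comparison asked what each receptor loss does in the presence of estrogen. No member was called, where 0.24% of all probe sets were in ERaKO minus WT and 0.0049% in ERbKO minus WT. In ERaKO 33 of 34 members were above 0 (61.4% of all probe sets were), with a median of 0.28 beside 0.075, and 3 members were at an unadjusted p under 0.05 (8.82%, against 7.8% of all probe sets and 5.46% higher). Over all 74 probe sets of the members 14 were, all higher (18.9%), where probe sets of 1 gene read the same RNA. They belonged to 9 members, and 4 of them were among the 5 of Rock1, with a smallest adjusted p of 0.12, while its representative probe set gave 0.29 ± 0.26. In ERbKO 21 of 34 were above 0 (41.7%), with a median of 0.041 beside -0.052, and 1 was at an unadjusted p under 0.05 (2.94%, against 5.74% and 1.74% higher). Each comparison had 2 members with arrays apart from WT, all higher (3.78% and 4.94% of all probe sets, 2.41% and 1.59% higher). In ERaKO minus WT, striated muscle, macrophage and endothelial markers had medians of -0.79, -0.53 and -0.31, with 0 of 5, 0 of 6 and 1 of 10 above 0. Brown adipocyte, white adipocyte and fibroblast medians were -0.085, -0.12 and -0.054, with 2 of 7, 1 of 6 and 4 of 10 above 0. In ERbKO minus WT, striated muscle, macrophage and endothelial markers had medians of -1.25, -0.45 and -0.47, with 0 of 5, 1 of 6 and 1 of 10 above 0. Brown adipocyte, white adipocyte and fibroblast markers had 0.082, 0.072 and -0.059 there, with 5 of 7, 5 of 6 and 4 of 10 above 0. Their part in the members' values was not tested.

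Among all 74 tested probe sets of the members, a Rock1 probe set had the smallest p in ERaKO (adjusted p = 0.12). By representative probe sets, Myocd was the member with the smallest p in both comparisons. ERbKO E2 arrays, 8.82 to 9.23, all lay above the WT E2 arrays, 6.28 to 8.31, a difference of 1.71 ± 0.43 (adjusted p = 0.66, 95% interval 0.805 to 2.62). ERaKO E2 arrays, 8.34 to 8.79, also lay above them, with 1.23 ± 0.43 (adjusted p = 0.45). With array weights in the fit the ERbKO difference was a call (adjusted p = 0.0314). In ERaKO the next were Smtn, whose arrays of 10.82 to 12.07 lay above 10.47 to 10.81 in WT (0.96 ± 0.34, adjusted p = 0.46), and Itga5 (0.84 ± 0.38, adjusted p = 0.61). In ERbKO they were Vim (0.26 ± 0.15) and Pdlim3 (0.61 ± 0.36), and Rock1, at 12.49 to 12.79 against 12.01 to 12.34, was the other member with arrays apart. Without WT placebo 4, which is in neither group but enters the pooled spread, 7 members in ERaKO and 3 in ERbKO were at an unadjusted p under 0.05 and none was called.

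Other genes of smooth muscle were taken from a list of 50 genes that are not members. They belong to actomyosin, focal adhesions, calcium handling, RhoA signalling and transcription, and include nonmuscle filament genes such as Myh10. Of 47 tested, 0 were called in any of the 10 comparisons with all arrays. With E2 in WT 34 of 47 were above 0 (median 0.10) and 4 were at an unadjusted p under 0.05 (8.51%, against 7.97% of all probe sets). Leaving out WT placebo 4, which has the lowest mean of the list among WT placebo arrays (8.85), gave 22 of 47 above 0 and a median of -0.032. The smallest p were those of Ntn4, the secreted guidance factor netrin 4 (0.49 ± 0.19), Mrtfb, a serum response factor coactivator related to myocardin (0.45 ± 0.18), and Hand2, a transcription factor (-0.98 ± 0.39). In ERaKO 39 of 47 were above 0 (median 0.30), and the smallest p were those of Ppp1cb, a catalytic subunit of myosin phosphatase (0.46 ± 0.20), Filip1l (0.79 ± 0.35) and the LIM protein gene Pdlim1 (0.59 ± 0.30). In ERbKO 24 of 47 were above 0 (median 0.019), and the smallest p were those of Nrip2 (1.01 ± 0.61), the transcription factor Gata6 (0.51 ± 0.32) and the nonmuscle myosin heavy chain gene Myh10 (-0.42 ± 0.29). In WT the arrays did not overlap for 2 of 47 (4.26%, against 1.85% of all probe sets), Ntn4 and Mrtfb. In ERbKO they did not for 4 (8.51%, against 9.57%), higher for Myh9, Myl12a and Klf4 and lower for Myh10. The adjusted p nearest the threshold in the list was that of Pgm5, a protein of muscle adhesion sites, in ERaKO against WT with E2 (1.02 ± 0.21, adjusted p = 0.052), chosen here after its value was seen. Without WT placebo 4, which is in neither of these groups but enters the pooled spread, 1 of the 47 genes was called in that comparison.

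Of the 34 members, 19 had more than 1 tested probe set, and no member had probe sets that differed in sign with both at an unadjusted p under 0.05. The precision limits what can be said of members that were not called. The 95% intervals of the E2 change reached from the estimate by a median of 0.504 in WT, from 0.274 for Vim to 2.18 for Pln, and by a median of 0.651 in each knockout. In WT the whole interval lay within 1 unit of 0 for 25 of 34 members, among them Myh11 (-0.145 to 0.671), Acta2 (-0.194 to 0.512), Tagln (-0.0575 to 0.734) and Cnn1 (-0.197 to 0.912). In ERaKO this held for 17 members and in ERbKO for 25.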

How the data were processed

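Expression was measured on Affymetrix mouse arrays in 22 aortas of 6 groups. The deposited log2 values came from the authors' use of GCRMA, per the submitters' processing notes, a method that by default corrects background, equalises the arrays' distributions and summarises probes into probe sets, with settings not given in the sources used here. A limma table deposited by the authors holds log2 fold changes and unadjusted p-values, which equal those of the fit used here to within 4.98e-08 and 4.94e-08 in 7 comparisons. The genome build was not given in the sources used here.

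Control probe sets (64) were removed, and 20410 of the others had log2 values over 4 on 3 arrays or more and entered the tests. The model had 1 mean per group (limma 3.58.1, R 4.3.3). It gave 10 contrasts, two-sided, with Benjamini-Hochberg adjustment over all tested probe sets and a call at an adjusted p under 0.05. The code was tested on simulated data. A member is represented by its probe set with the highest mean.

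The members and the gene lists were chosen with earlier results of these data known. Values by group are given for 13 members always, and for the 3 members with the smallest p in each contrast. The labels do not say whether equal replicate numbers pair mice. Equal-numbered E2 and placebo arrays of a genotype deviated together (r of 0.246 to 0.661, 11 pairs, each E2 array correlating best with its own number), so a fit with a replicate block was an alternative. Across genotypes r was -0.337 to 0.395. The number of arrays limits the precision.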

Additional observations from a re-analysis of the deposited data

Results flagged for a closer look

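The 34 members in the 2 WT groups of 5 arrays form 68 groups of values. Of these, 14 held 1 array far from the other 4 by Dixon's criterion (gap over range above 0.71). For separate groups of values chance gives about 1 in 20. Members tended to move together from array to array, so the 68 groups are not separate observations. The share over all probe sets was not computed. In 12 of the 14 the far array was WT placebo 4, each time as the lowest. Its log2 values there were 12.19 for Myh11, 7.91 for Actg2, 12.39 for Cald1, 10.63 for Tpm1, 12.13 for Tpm2, 11.13 for Actn1, 9.75 for Actn4, 9.59 for Synpo2, 12.34 for Itga8, 9.67 for Pdlim7, 10.52 for Ppp1r12a and 10.89 for Rock1. On the same array the brown adipocyte marker mean, 11.75, was the highest of the 22 arrays, and its part in these values was not tested.

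Of the other 2, Des was highest on WT placebo 1 with 7.97, the array with the highest striated muscle marker mean, and Ppp1r14a was lowest on WT E2 1 with 9.72. Knockout groups hold 3 arrays and were not examined in this way. No difference between E2 changes of genotypes passed the test for any member.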

How the results depend on the processing

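Each of the 10 contrasts was refitted with other filters on low values, other normalisations between arrays, another variance model, array weights, only the groups compared, the replicate block, all probe sets of a member, a looser threshold, and each of the 22 arrays left out. The count of called members stayed at 0 in all of these but 2. With array weights 1 member was called in ERbKO minus WT with E2, Myocd (adjusted p = 0.0314). With WT placebo 4 left out and the replicate block together, chosen after seeing the data, 1 member was called for E2 in ERaKO, Srf (adjusted p = 0.013). The cause was not tested in either case. The replicate block alone called 0 members, with smallest adjusted p of 0.135 in WT, 0.246 in ERaKO and 0.693 in ERbKO, and changed no call.

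The members' median in WT was 0.048 to 0.36 with 1 array left out, in ERaKO 0.22 to 0.44 and in ERbKO -0.15 to 0.021. WT placebo 4 gave the lowest WT value and WT placebo 3 the highest. The medians of the other contrasts ranged, in the same way, from -0.081 to 0.26 and from -0.41 to -0.070 for the differences of the ERaKO and ERbKO changes from the WT change, and from 0.0013 to 0.48 and from 0.14 to 0.47 for ERaKO and ERbKO against WT with placebo. With E2 they ranged from 0.11 to 0.38 and from 0.0079 to 0.14.

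Changes of single members altered their sign, none of them a call, and no cause was tested. In WT, Vim had -0.0341 with quantile normalization, -0.0458 with array weights and -0.0376 with the block and without WT placebo 4, where Tpm1 had -0.00142 and Srf -0.0157, and Tpm1 had -0.244 over all its probe sets. In ERaKO, Acta2 had -0.0566 with quantile normalization and -0.0336 with array weights, and Pln 0.149 with array weights. In ERbKO, Vim had 0.0182 with quantile normalization and 0.00217 with centred arrays. With array weights Cnn1 had -0.0514, Des 0.012 and Tagln -0.0188 there, and over all probe sets Myh11 had 0.0374 and Pln 0.116.

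With 1 array left out, Pln ranged from -1.2 to 0.355 and Vim from -0.0755 to 0.064 in WT. Without WT placebo 4 the WT changes of Myl6, Vim, Vcl, Itga8, Pdlim3, Ppp1r14a and Rock1 turned from above to below 0 (-0.198, -0.0755, -0.00977, -0.00939, -0.127, -0.098 and -0.185). In ERaKO Acta2 ranged from -0.124 to 0.262, Pln from -1.69 to 0.74 and Tagln from -0.0142 to 0.378. In ERbKO Acta2 ranged from -0.196 to 0.00958, Cnn1 from -0.129 to 0.255, Des from -0.527 to 0.526, Pln from -0.711 to 0.236, Tagln from -0.0252 to 0.167 and Vim from -0.111 to 0.0608.

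Over all probe sets the count of calls moved more than that of members. For E2 it went from 79 to 347 in WT, 1 to 340 in ERaKO and 20 to 35 in ERbKO with the replicate block. Array weights gave 165 in WT and 240 in ERbKO, and in ERbKO minus WT with E2 239 in place of 1. With only the compared groups in the fit it was 27 in WT and 2 in ERbKO, and 12 in place of 49 in ERaKO minus WT with E2. Without a filter on low values it was 57 in WT and 14 in ERbKO, and at an adjusted p under 0.1 it was 126 in WT. With 3 arrays in a knockout group, changes within the intervals given may go undetected.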

Other observations

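The SD between arrays of a group had a median of 0.393 over the 34 members and of 0.336 over all tested named genes. The probe sets of a member disagreed by more than 1 in an E2 change in 4 cases. In ERaKO the 4 of Itga5 ranged from -0.468 to 0.77 and the 4 of Tpm1 from -0.682 to 0.504. In ERbKO the 4 of Tpm1 ranged from -0.19 to 0.88 and the 4 of Synpo2 from -1.14 to -0.0143, and 1 of these 4 was at an unadjusted p under 0.05, with an adjusted p of 1.0.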
